A study of Mus musculus with 6 samples.

Results

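The genes described here encode the enzymes and transporters that carry glucose through glycolysis to lactate and through the pentose phosphate pathway, together with a few of their regulators. Of 32 listed genes, 29 had a probe set that the platform annotation gives to that gene alone, among 18194 genes measured in all. Each was read from its brightest probe set (by mean log2 value). The list names genes by their place in the pathway and was drawn up with earlier results of these data known. Gpi1, Eno1 and G6pdx were not analysed here, so the steps of phosphoglucose isomerase and of glucose-6-phosphate dehydrogenase have no value and enolase is represented by Eno2.

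The cells were MLL-AF9 leukaemic progenitors called LGMP, sorted from mouse bone marrow as lineage-negative, cKit+, Sca1-, YFP+, CD34+ and FcgRII/III+. Irradiated wild-type recipients aged 12 weeks had received 50000 cKit+ cells infected with MLL-AF9-IRES-YFP and 250000 wild-type support marrow cells. The donor genotype was MLL-AF9 with EF1αwt/wt and ROSAwt/CreERT2 in the WT group (n = 3, labelled male) and MLL-AF9 with EF1αwt/lsl-N1-IC and ROSAwt/CreERT2 in the N1-IC group (n = 3, labelled female). N1-IC is the intracellular domain of Notch1 behind a stop cassette in the EF1α locus, and CreERT2, the tamoxifen-dependent recombinase that removes the cassette, was carried by both groups. All mice were given 2 injections of tamoxifen (0.2 mg per g), starting 4 weeks after transplantation, and were killed 6 days after the last. Genotype and sex cannot be told apart in any comparison, which touches most directly the X-linked member Pgk1. Nothing in the labels says how many recipients or donors lie behind a sample, so errors and p-values describe the spread between these samples, which may be technical.

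Glycolysis splits glucose into pyruvate in the cytosol and yields ATP. Lactate dehydrogenase turns pyruvate into lactate, which monocarboxylate transporters export. The pentose phosphate pathway branches off at glucose 6-phosphate and supplies NADPH and ribose 5-phosphate for biosynthesis and for nucleotides. Neutrophils also draw on its NADPH for the oxidative burst. The transcription factor HIF-1 raises many glycolytic genes under low oxygen, and it binds a short core, ACGTG, in their promoters. MYC can bind the related E-box CACGTG, and the Notch partner Rbpj binds a core written TGGGAA.

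Because these regulators act on promoters, the windows from 250 bases before to 50 after the annotated start were searched for the 3 sets of letters on both strands. The table of RefSeq promoters (build GRCm38.p6) held a window for 28 of the 29 measured members, Slc2a3 being the exception. ACGTG was present for 16 of the 28 (57.1%), against 21.8% of all 27025 genes of that table and 30.9% of the 7521 measured genes at or above the median level. CACGTG, which contains ACGTG, was present for 5 of 28 (17.9%, against 8.09% and 12.5%). TGGGAA was present for 4 of 28 (14.3%, against 28.3% and 25.9%). A gene was counted if any of its windows matched, so genes with more annotated starts are counted more easily. By window the shares were 47.5% for ACGTG (against 19.6% and 26.7%) and 12.5% for CACGTG (against 7.15% and 10.5%). For TGGGAA the share by window was 12.5% (against 25.6% and 22.4%). A match is a description of letters in a window and shows no binding.

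Windows of 4 members are printed 5′ to 3′ on the strand of the gene, with ACGTG or its reverse complement CACGT in capitals. Pfkm, Hk2 and Pdk1 were taken from the 6 members whose arrays did not overlap between genotypes. The others of these, Hk1, Aldoa and Tkt, are not printed. Ldha is shown as a member whose arrays did overlap. For Pfkm, Pdk1 and Ldha the most upstream annotated start was taken, of 4, 2 and 2. The windows lie at chr15:98092339-98092638 (plus strand) for Pfkm, chr6:82774405-82774704 (minus strand) for Hk2, chr2:71872974-71873273 (plus strand) for Pdk1 and chr7:46845554-46845853 (plus strand) for Ldha.
Pfkm: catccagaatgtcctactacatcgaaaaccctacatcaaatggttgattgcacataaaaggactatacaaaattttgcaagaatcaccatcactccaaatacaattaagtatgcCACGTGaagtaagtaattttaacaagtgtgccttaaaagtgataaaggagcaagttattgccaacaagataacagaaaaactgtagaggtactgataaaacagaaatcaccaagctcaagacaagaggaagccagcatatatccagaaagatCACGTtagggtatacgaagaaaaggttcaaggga
Hk2: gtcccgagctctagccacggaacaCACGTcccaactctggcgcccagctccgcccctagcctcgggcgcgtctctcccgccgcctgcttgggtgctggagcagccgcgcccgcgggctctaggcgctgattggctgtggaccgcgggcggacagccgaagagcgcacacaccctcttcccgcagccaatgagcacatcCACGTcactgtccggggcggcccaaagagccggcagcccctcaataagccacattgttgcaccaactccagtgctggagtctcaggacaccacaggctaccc
Pdk1: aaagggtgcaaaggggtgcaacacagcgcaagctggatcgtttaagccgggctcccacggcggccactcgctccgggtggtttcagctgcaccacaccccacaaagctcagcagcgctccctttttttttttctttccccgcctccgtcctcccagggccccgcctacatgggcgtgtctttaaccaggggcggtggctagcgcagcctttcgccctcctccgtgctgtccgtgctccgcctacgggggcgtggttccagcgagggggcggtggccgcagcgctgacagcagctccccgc
Ldha: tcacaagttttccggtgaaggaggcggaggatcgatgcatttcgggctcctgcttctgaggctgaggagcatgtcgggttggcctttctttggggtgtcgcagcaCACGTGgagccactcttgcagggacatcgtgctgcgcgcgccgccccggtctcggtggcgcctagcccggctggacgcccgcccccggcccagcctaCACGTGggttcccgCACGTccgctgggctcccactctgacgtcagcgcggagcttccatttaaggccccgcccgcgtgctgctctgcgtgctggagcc
In the Ldha window the letters matched 5 times, and the window held the E-box CACGTG at 2 places, each giving a match on both strands. Hk2 had 2 matches, whose first base lay 226 and 52 bases before the start. Pdk1 had 0 in this window and 0 in its other window. Ldha also had 0 in its other window, and Pfkm had 1, 0 and 0 in its further windows, so these counts depend on the start taken.

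Some arrays stood apart, and the values bear on what follows. The mean log2 level of 10 late granulocyte markers was 7.71 for WT replicate 1 and 10.12 to 10.95 for the remaining samples. That of 9 erythroid and megakaryocyte markers was 8.73 for WT replicate 2 and 5.58 to 6.34 elsewhere, and that array also carried Xist at 10.70 against 5.64 and 5.42 in the other WT samples. WT replicate 3 lay inside the range of the N1-IC arrays for 53.2% of all genes, against 37.8% and 36.4% for WT replicates 1 and 2, but for the members the shares were 34.5% (replicate 3), 34.5% and 44.8%. All 10 granulocyte markers had a higher mean in N1-IC (median log2 fold change 0.97) and 7 of 9 erythroid and megakaryocyte markers a lower one (median -0.86), and no gene of these lists passed the test. The part of such cells in the results below was not tested. Of the genes of the sort, Kit, Fcgr2b and Fcgr3 lay above 10 on every array, and Cd34 lay at 11.69, 11.52 and 11.33 in WT and at 11.04, 10.05 and 11.28 in N1-IC. Mast cell and basophil markers (4 genes) had means of 7.14, 8.83 and 5.96 in WT and 6.53, 8.71 and 8.32 in N1-IC. Of the 4 B lineage markers Cd79b lay at 10.92 to 11.47 on all arrays, and Cd79a, Pax5 and Ebf1 below the array medians. T lineage markers, with Cd3e, Cd3g, Cd3d, Cd4 and Cd8a measured, had list means of 4.66 to 5.25, also below the array medians of 5.63 to 5.67. Single genes lay above these medians. Cd3d and Cd3e were at 6.19 and 6.01 in WT replicate 2, and Cd3e at 5.82 in N1-IC replicate 1. Cd8a was at 5.85 in WT replicate 3 and at 5.65, 5.92 and 5.78 in N1-IC. In a sorted bulk sample a smaller share of a cell type and less RNA per cell cannot be told apart.

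N1-IC samples, in which the Notch1 intracellular domain could be switched on, were compared with WT samples given the same drug. No glycolytic or pentose phosphate gene passed the test: 0 of 29 members had a limma adjusted p under 0.05 over all genes, where 0.0055% of genes (the single Y-linked gene Eif2s3y) did. At an unadjusted limma p under 0.05 there were 2 members, Pfkm lower and Pdk1 higher in N1-IC, which is 2 of 29 where 7.98% of all genes did. The median log2 fold change (N1-IC minus WT) was -0.03 over the members and 0.01 over all genes. The mean of 11 members was higher and of 18 lower in N1-IC, where 9568 of all 18194 genes were higher and 8626 lower. The arrays of one genotype lay wholly apart from those of the other for 6 members, 1 higher and 5 lower in N1-IC, where 14.8% of all genes (8.32% higher, 6.52% lower) did. A mean difference over 0.5 log2 units was seen for 1 member, Pfkm, where 7.47% of genes exceeded that size.
The counts without overlap moved with the array left out. Without WT replicate 1 they were 1 higher and 6 lower, where 13.3% and 10.2% of all genes were. Without WT replicate 2 they were again 1 and 6, where 12.4% and 10.4% of all genes were. Without WT replicate 3 they were 3 higher and 8 lower, where 18.8% and 15.3% of all genes were. The median log2 fold change of the members was -0.02, -0.05 and -0.01 in these 3 cases.

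Because no member passed, the width of the intervals says what the arrays could show. For 17 of 29 members the 95% interval of the log2 fold change lay between -0.5 and 0.5, and for 26 between -1 and 1. The 3 whose intervals reached beyond -1 or 1 were Pfkm, Slc2a3 and Eno2. A mean difference within 0.2 log2 units was measured for 21 members. The intervals come from the same 3 arrays a group and from limma's shared estimate of the spread.

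**Figure D1:**
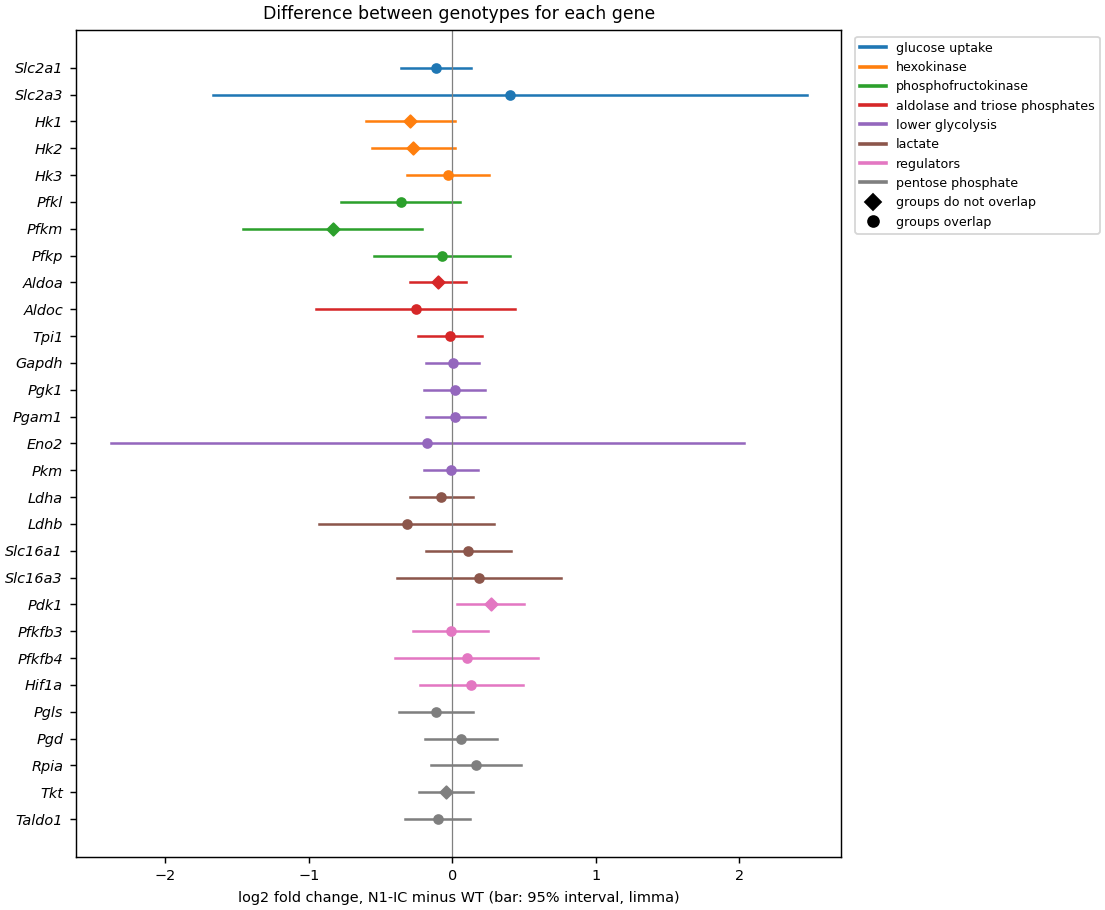
Log2 fold change (N1-IC minus WT, horizontal axis) of the 29 measured members, grouped by step and coloured by group, with limma's 95% interval as a bar. Diamonds mark the 6 members whose 3 N1-IC and 3 WT arrays do not overlap. Pfkm at -0.83 lies farthest from 0, and Slc2a3 and Eno2 have the widest intervals.

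Glucose entry was measured through 2 transporter genes that behaved differently among samples. Slc2a1 encodes GLUT1, the basal glucose transporter of blood cells. It lay at 11.94, 11.79 and 11.95 log2 units on WT arrays 1, 2 and 3 and at 11.78, 11.67 and 11.89 on the N1-IC arrays, with overlapping groups and a log2 fold change of -0.12 ± 0.10 (limma standard error, adjusted p = 0.713). The remaining pair of Slc2a1 probe sets had 0.08 and -0.01, also with overlapping groups, so its direction was not settled. Slc2a3 encodes GLUT3, a transporter of high affinity. It lay at 7.08, 10.19 and 9.35 in WT and at 8.52, 10.22 and 9.08 in N1-IC, a range of 3.14 over the 6 arrays.
The within-group SD of Slc2a3 (1.29) was at the 99.3rd percentile of all genes, and its log2 fold change was 0.40 ± 0.85 (limma adjusted p = 0.888). Without WT replicate 1, its lowest array, the value was -0.50, and without WT replicate 2 it was 1.06. WT replicate 1 was also the array with the lowest late granulocyte markers, and all 10 of those markers had their lowest value there. N1-IC replicate 1, second lowest for Slc2a3, had a marker mean of 10.52, within the range of the remaining arrays. The part of these cells in the level of Slc2a3 was not tested. A further probe set of Slc2a3 followed the brightest one at 7.14 to 10.02, and the remaining pair lay at 3.46 to 4.08, near the lower quartile of the arrays (3.86 to 3.92), and had opposite signs.

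Hexokinase, which traps glucose as glucose 6-phosphate, had 2 of its 3 genes wholly below their WT values in all N1-IC samples. Hk1, the widely expressed isoform bound to mitochondria, lay at 9.27, 9.57 and 9.25 in WT and at 8.95, 9.05 and 9.21 in N1-IC. Hk2, the isoform inducible by HIF-1 and growth factors whose promoter is shown above, lay at 11.94, 11.77 and 12.01 in WT and at 11.71, 11.45 and 11.74 in N1-IC. The gap between the nearest arrays of the 2 groups was small in both. With arrays centred on their medians the groups of Hk2 overlapped, and with the mean of its probe sets those of Hk1 did.
The log2 fold changes were -0.29 ± 0.13 for Hk1 and -0.27 ± 0.12 for Hk2, each with a limma adjusted p of 0.618, so neither passed. The second probe set of Hk1 had -0.26 with overlapping groups. Hk3, an isoform characteristic of myeloid cells, lay between 11.37 and 11.74 in WT and between 11.49 and 11.53 in N1-IC, and the log2 fold change was -0.03 ± 0.12. Its direction was not settled, since the other probe set had 0.13.

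Phosphofructokinase catalyses the committed step of glycolysis, and its 3 subunit genes all had a lower mean in N1-IC. Pfkm, the muscle-type subunit, differed most of all members: it lay at 8.44, 8.69 and 7.89 in WT and at 7.12, 7.72 and 7.68 in N1-IC. The groups did not overlap, with WT replicate 3 nearest to the N1-IC arrays.
The log2 fold change of Pfkm was -0.83 ± 0.26 (95% interval -1.46 to -0.21), a ratio of 0.561, and its limma adjusted p was 0.618. With single arrays omitted it ran from -1.06 to -0.64, with adjusted p from 0.297 to 0.837. Pfkm has 1 probe set. Pfkl, the liver-type subunit, lay at 9.84, 9.86 and 9.43 in WT and at 9.39, 9.11 and 9.54 in N1-IC. Here N1-IC replicate 3 lay above WT replicate 3, and the log2 fold change was -0.36 ± 0.17 (limma adjusted p = 0.618). All 3 probe sets of Pfkl were lower in N1-IC on average (-0.18 to -0.36). Pfkp, the platelet-type subunit, had -0.07 ± 0.20 with overlapping groups, and 0.11 without WT replicate 1. Its other probe sets, both dimmer, had -0.37 and -0.07, also with overlapping groups, and the mean of its probe sets had -0.17.

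Aldolase and triose phosphate isomerase split fructose bisphosphate and interconvert the triose phosphates. Aldoa, the main aldolase outside liver and brain, lay at 13.56, 13.50 and 13.46 in WT and at 13.43, 13.38 and 13.42 in N1-IC. All N1-IC arrays were below all WT arrays, by a log2 fold change of only -0.10 ± 0.08 (limma adjusted p = 0.694). Of its 5 probe sets 4 lay above 13 with changes of -0.06 to -0.10, and the fifth, which lay at 9.34 to 10.17, had 0.40, so their mean gave 0.01. Aldoc, the brain-type aldolase, lay at 7.06, 6.78 and 5.93 in WT and at 6.28, 6.33 and 6.39 in N1-IC. The WT arrays enclosed the N1-IC arrays, with a log2 fold change of -0.26 ± 0.28, which was -0.02 without WT replicate 1 and -0.59 without WT replicate 3 (limma adjusted p = 0.297). Tpi1 lay between 12.35 and 12.53 on all 6 arrays and had -0.01 ± 0.09.

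In the lower part of glycolysis, from glyceraldehyde 3-phosphate to pyruvate, the brightest probe sets of all measured genes but Eno2 stayed within 0.15 log2 units over the 6 arrays. Gapdh, the dehydrogenase that forms NADH, varied by 0.0124 log2 units over the 6 arrays, the smallest range among the members. Pkm, which encodes the pyruvate kinase of most tissues, varied by 0.0489, Pgk1 (phosphoglycerate kinase) by 0.142 and Pgam1 (phosphoglycerate mutase) by 0.15. Their log2 fold changes were 0.002, -0.008, 0.02 and 0.02, with standard errors of 0.08 to 0.09. For Pgk1 this holds by its brightest probe set alone: the other pair had 0.30 and 0.40, and the mean of its 3 probe sets had 0.24. The signs of Gapdh and Pgam1 turned with a further quantile normalization (-0.01 each) and that of Pkm with arrays centred on their medians (0.006). Gapdh was read from a control probe set for the 3′ end of the transcript at 13.85 to 13.86, where the highest values of any probe set were 14.47 to 14.55, and whether its spots were near saturation was not tested. Its 3′ probe set exceeded its 5′ probe set by 0.51 to 0.55 on the 6 arrays, a measure that is larger where transcripts are less complete at the 5′ end. The same difference was 0.417 to 0.493 for beta-actin, and for the transferrin receptor it was 5.01, 4.49 and 4.79 in WT and 5.49, 5.42 and 4.96 in N1-IC. The part of RNA quality in the results was not tested.
Eno2, the neuron-type enolase gene, lay at 4.97, 4.12 and 6.45 in WT and at 4.21, 4.01 and 6.80 in N1-IC. It was above the array median in replicate 3 of each group and below it in replicates 1 and 2. Its within-group SD of 1.38 was at the 99.4th percentile of all genes, and its log2 fold change of -0.18 ± 0.91 (limma adjusted p = 0.957) ran from -1.07 without N1-IC replicate 3 to 0.46 without WT replicate 3. The labels do not tie replicates of one number to each other, and over all genes the deviations of the replicates numbered 3 correlated at -0.11.

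**Figure D2:**
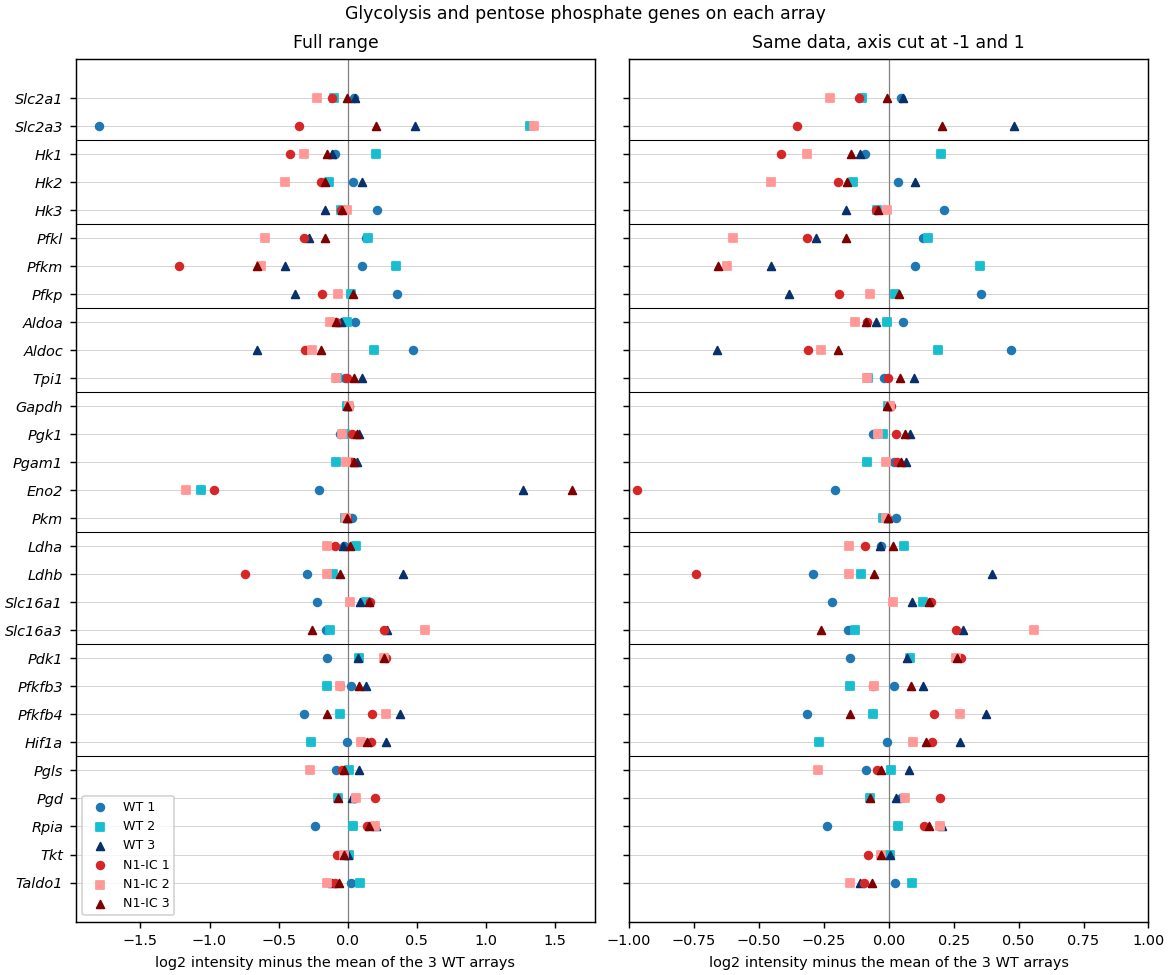
Log2 intensity of each member on each array minus the mean of the 3 WT arrays (horizontal axis), with blue symbols for WT and red symbols for N1-IC and genes grouped by step. The right panel repeats the left with the axis ending at -1 and 1, so points farther out appear in the left panel alone. Slc2a3 and Eno2 spread over 3.14 and 2.79 units, and Gapdh, Pkm and Tkt over less than 0.1.

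Of the genes of lactate formation and export none passed the test, and by the brightest probe sets the groups of each overlapped. Ldha, the subunit favouring lactate formation, lay at 12.78, 12.86 and 12.77 in WT and at 12.71, 12.65 and 12.82 in N1-IC, and the log2 fold change was -0.08 ± 0.09. Ldhb, the subunit favouring pyruvate formation, lay at 10.89, 11.07 and 11.58 in WT and at 10.44, 11.03 and 11.12 in N1-IC. The groups of Ldhb overlapped, and its 4 probe sets had changes of -0.32 to -0.50 (limma adjusted p = 0.69 for the brightest). The brightest had -0.11 without N1-IC replicate 1, -0.12 without WT replicate 3 and -0.46 without WT replicate 1. The lactate transporter genes Slc16a1 (MCT1) and Slc16a3 (MCT4) had 0.11 ± 0.12 and 0.19 ± 0.24. Slc16a3 lay at 9.48, 9.50 and 9.92 in WT and at 9.89, 10.19 and 9.37 in N1-IC, so the lowest of all arrays was N1-IC replicate 3, and the value without N1-IC replicate 2 was 0.0005.

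Of the 4 regulators, the kinase gene Pdk1 was the single member higher on every N1-IC array. Pdk1 encodes a pyruvate dehydrogenase kinase that inhibits the conversion of pyruvate to acetyl-CoA in the mitochondrial matrix. It lay at 12.38, 12.61 and 12.60 in WT and at 12.81, 12.79 and 12.79 in N1-IC, so the N1-IC arrays lay close together above the highest WT array. Its log2 fold change was 0.27 ± 0.10 (95% interval 0.03 to 0.50), a ratio of 1.20, with a limma adjusted p of 0.618.
The 4 probe sets of Pdk1 were all higher in N1-IC on average, but not by one amount. The second brightest lay at 10.43, 10.53 and 11.45 in WT and at 11.62, 11.46 and 11.50 in N1-IC, and the log2 fold change was 0.73, with WT replicate 3 next to the N1-IC arrays. A like arrangement was seen in 2 further probe sets of Pgk1. The brighter of them lay at 11.77, 11.60 and 12.13 in WT and at 12.16, 12.06 and 12.19 in N1-IC (log2 fold change 0.30), and the dimmer at 11.12, 10.99 and 11.64 in WT and at 11.66, 11.60 and 11.70 in N1-IC (0.40).
Hif1a, the oxygen-regulated subunit of HIF-1, lay at 12.22, 11.96 and 12.51 in WT and at 12.40, 12.32 and 12.37 in N1-IC. The log2 fold change was 0.13 ± 0.15 by this probe set and -0.12, -0.37 and -0.65 by the other 3, so no direction can be given. HIF-1 is controlled largely through the stability of this protein, which arrays do not measure. Pfkfb3 and Pfkfb4 encode the enzymes that make and break fructose 2,6-bisphosphate, the activator of phosphofructokinase. They had -0.01 ± 0.11 and 0.10 ± 0.21, and the sign of Pfkfb3 turned with either other scaling (0.01 and 0.003).

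**Figure D3:**
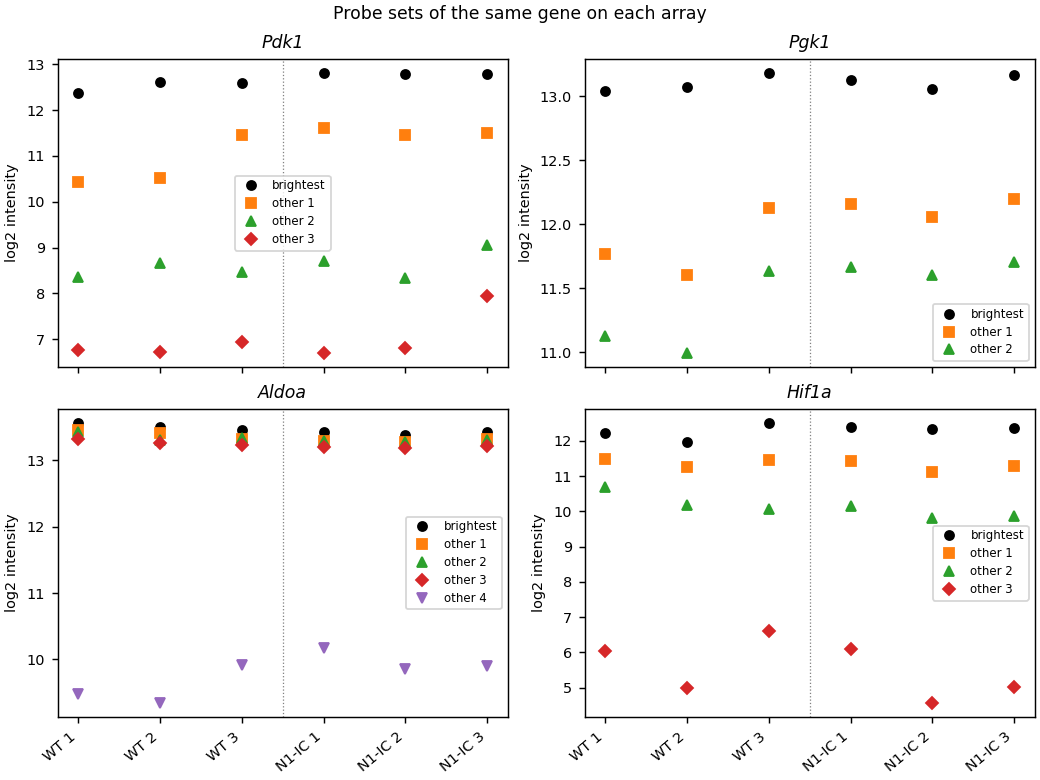
Log2 intensity (vertical axis) of every probe set of Pdk1, Pgk1, Aldoa and Hif1a on the 6 arrays, with the brightest probe set in black. In Pdk1 and Pgk1 some dimmer probe sets place WT replicate 3 beside the N1-IC arrays, and in Hif1a the probe sets disagree in sign (0.13 against -0.12 to -0.65).

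Probe sets of the same gene often disagreed at this size of difference. The 29 members had 67 probe sets, 11 members had 1 and 18 had several. In 8 of those 18 all probe sets had the same sign and in 10 they did not. When probe sets were averaged within each gene, the members without overlap were 0 higher and 4 lower, where 7.8% and 6.9% of all genes were. The arrays of Pdk1 then overlapped, with a log2 fold change of 0.39.

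Of the pentose phosphate genes none passed the test. The median within-group SD of their list was 0.105, against 0.0582 for the lower glycolysis list with Eno2 included. By the brightest probe sets Tkt was the least variable of them, with an SD of 0.021. The 5 measured genes had log2 fold changes of -0.11 to 0.16. Pgls and Pgd act in the oxidative branch that makes NADPH. Pgls lay between 10.74 and 11.09 (log2 fold change -0.11 ± 0.11) and Pgd between 13.07 and 13.34 (0.06 ± 0.10, but -0.05 by its dimmest probe set). Rpia, the isomerase that forms ribose 5-phosphate, lay at 12.32, 12.60 and 12.77 in WT and at 12.70, 12.76 and 12.72 in N1-IC. WT replicate 1 was its low array, and the log2 fold change of 0.16 ± 0.13 was 0.04 without it.
Tkt and Taldo1, transketolase and transaldolase, return pentoses to glycolysis. Tkt lay at 13.77, 13.79 and 13.79 in WT and at 13.70, 13.76 and 13.75 in N1-IC, without overlap but with a log2 fold change of -0.05 ± 0.08 (limma adjusted p = 0.851). With arrays centred on their medians the lower members without overlap were 3 in place of 5, where 5.84% of all genes were. Taldo1 had -0.10 ± 0.09 with overlapping groups.

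Isoforms of one step were compared by the difference between their log2 values within each array, which shows unequal change and leaves their levels uncompared. Of 10 pairs, 9 were measured, and 0 had groups that did not overlap. The largest shift was that of Slc2a3 against Slc2a1, with Slc2a3 changing by 0.52 more than Slc2a1 between genotypes (exact permutation test, two-sided, p = 0.8), where the pair's within-group SDs were 1.67 and 0.944. Pfkm changed by -0.47 relative to Pfkl (exact permutation p = 0.3) and Hk3 by 0.26 relative to Hk1 (exact permutation p = 0.2). After adjustment over the 9 pairs every p was 0.9, and with 3 arrays against 3 no pair could go below 0.1 before adjustment. Without WT replicate 1, 2 pairs did not overlap, and without any other single array 0 or 1 did not. Smaller groups fall apart more easily. Without WT replicate 1, 13.3% of all genes were higher and 10.2% lower without overlap, against 8.32% and 6.52% with all arrays. Whether these pairs shifted was not settled by this count.

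The members varied within a genotype to very different degrees. The within-group SD was below the lower quartile of all genes for 12 of 29 members and above the upper quartile for 8. The median SD was 0.137 for the members and 0.17 for all genes. Most members were bright, 27 above the median gene and 16 among the brightest 10% of genes; the part of brightness in the SD was not tested. By array, WT replicate 1 was the farthest from a member's mean for 10 members, WT replicate 2 for 5, WT replicate 3 for 2 and N1-IC replicates 1, 2 and 3 for 4, 6 and 2.

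Other genes of carbohydrate use and of the HIF pathway gave 0 calls as well (limma adjusted p under 0.05), with 75 of 82 listed genes measured. At an unadjusted limma p under 0.05 there were 8 (2 higher, 6 lower), and 12 had groups that did not overlap (5 higher, 7 lower), beside the 7.98% and 14.8% of all genes given above. Their median log2 fold change was 0.01. These genes too were read from the brightest probe set, and further probe sets are not given for those that have several, such as Pck2, Egln1 and Arnt.
Pck2, the mitochondrial enzyme that makes phosphoenolpyruvate, had the smallest p among them: it lay at 11.14, 11.16 and 10.96 in WT and at 10.56, 10.65 and 10.63 in N1-IC. All N1-IC arrays were below all WT arrays, with a log2 fold change of -0.48 ± 0.09 (limma adjusted p = 0.618). Fbp1, the fructose bisphosphatase of gluconeogenesis, lay at 11.88, 11.97 and 12.43 in WT and at 12.58, 12.65 and 12.59 in N1-IC, and the log2 fold change was 0.51 ± 0.16 (limma adjusted p = 0.618). Gluconeogenesis and glycogen genes had 9 of 13 members with a higher mean, where 9568 of all 18194 genes did.
Among 8 HIF regulators Egln1, the prolyl hydroxylase that marks Hif1a protein for destruction, lay at 11.78, 11.44 and 11.43 in WT and at 11.05, 11.13 and 10.89 in N1-IC. The groups did not overlap, with a log2 fold change of -0.53 ± 0.13 (limma adjusted p = 0.618). Arnt, the constant partner of Hif1a, had 0.33 ± 0.15 with overlapping groups. Of 12 HIF targets outside glycolysis 6 had a higher and 6 a lower mean. P4ha1, a collagen prolyl hydroxylase, had -0.38 ± 0.13, and Ddit4, an inhibitor of mTOR signalling, had -0.35 ± 0.13. For both genes every N1-IC array lay below every WT array.
Pyruvate dehydrogenase and pyruvate import genes had 2 of 11 members with a higher and 9 with a lower mean, beside the 9568 and 8626 of all genes. No list was tested as a whole. Pdhx, which anchors a subunit of the complex, had -0.33 ± 0.10 without overlap, and the phosphatase gene Pdp2 had -0.19 ± 0.10. Of the genes of ribose use, the X-linked synthetases Prps1 and Prps2 of phosphoribosyl pyrophosphate had 0.19 ± 0.11 and 0.16 ± 0.14, in samples whose labelled sexes also differ.
Among regulators of glycolytic genes Prkaa1, a catalytic subunit of the energy sensor AMPK, lay at 8.94, 8.64 and 9.13 in WT and at 9.49, 9.45 and 9.44 in N1-IC. That is a log2 fold change of 0.56 ± 0.14 without overlap (limma adjusted p = 0.618). Myc had -0.55 ± 0.23 with overlapping groups. Of the other glycolytic isoforms Eno3, the muscle-type enolase, had -0.46 ± 0.17 without overlap and Slc2a4 (GLUT4) 0.24 ± 0.11 at 4.43 to 4.88, below the array medians.
Pklr, chosen here after its values were seen, encodes the pyruvate kinase of liver and red cells and lay at 5.62, 11.72 and 7.37 in WT and at 6.37, 5.63 and 7.04 in N1-IC. Its high array was WT replicate 2, the array with the high erythroid and megakaryocyte markers, 7 of 9 of which had their highest value there. Their part in the level of Pklr was not tested.

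**Figure D4:**
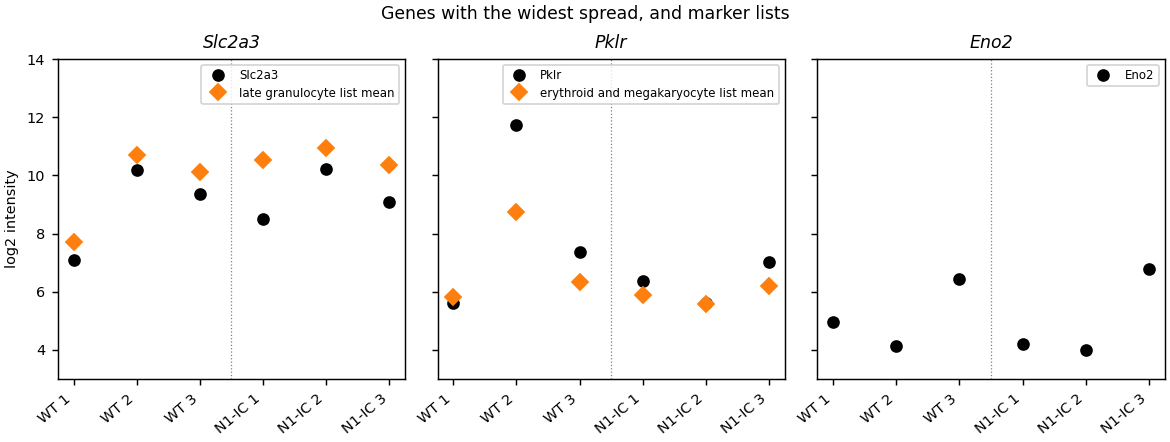
Log2 intensity (vertical axis) of Slc2a3, Pklr and Eno2 on the 6 arrays (black), with the mean of the late granulocyte list beside Slc2a3 and of the erythroid and megakaryocyte list beside Pklr (orange). Slc2a3 and the granulocyte list are lowest in WT replicate 1, Pklr and the erythroid list highest in WT replicate 2, and Eno2 is high in replicate 3 of both groups.

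**Figure D5:**
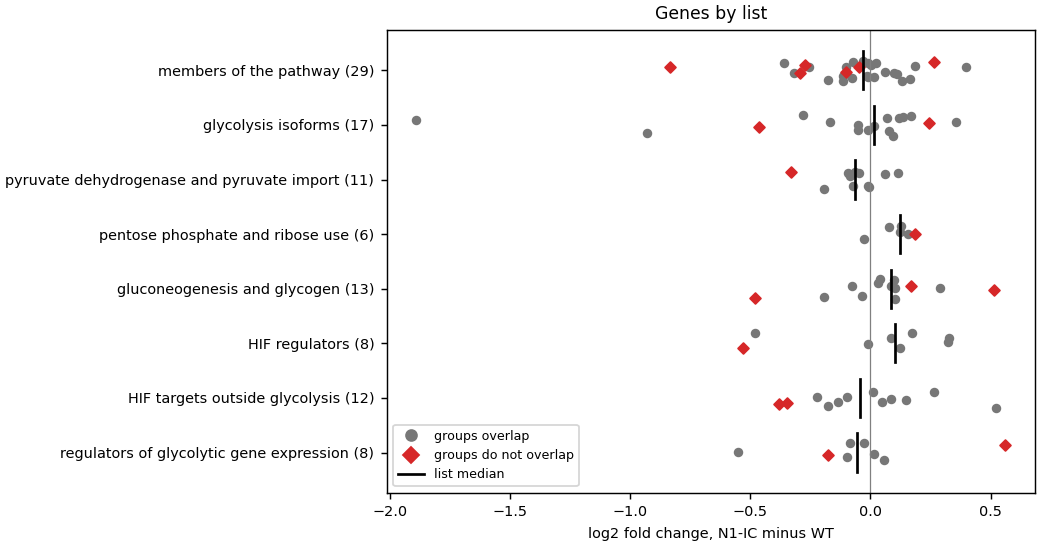
Log2 fold change (N1-IC minus WT, horizontal axis) of the 29 members and of the genes of 7 further lists, 1 point per gene, with the list median as a bar and diamonds for genes whose groups do not overlap. List medians lie between -0.06 and 0.12, and vertical scatter within a list carries no meaning.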

How the data were processed

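RNA of 6 sorted samples, 3 a genotype, was amplified from 5 ng and hybridised to Affymetrix mouse arrays, 1 sample an array. Per the submitters' processing notes the authors used RMA (version not given in the sources used here), and the deposited values were on a linear scale, so they are treated as intensity and log2 was taken with no offset. Detection calls were not used, so low values may be background. Of 45101 probe sets 34958 carried 1 gene symbol, 932 several and 9211 none. Each of 18194 genes was represented by its brightest probe set and N1-IC was compared with WT in limma 3.58.1 (R 4.3.3), with Benjamini-Hochberg adjustment over all genes and 0.05 as threshold. Intervals are 95% and rest on 3 arrays a group, which limits precision. The log2 values of isoform pairs were tested by exact two-sided permutation. The fit was tested on simulated data.

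The members and lists were chosen with earlier results of these data known. All members are given, and from each other list the 2 genes with the smallest p. Replicates numbered alike deviated together with correlations of 0.009, 0.06 and -0.11 over genes, so the numbers were not taken to pair the samples. Promoters came from the RefSeq table (GRCm38.p6). Other scalings, probe set rules, fits and left-out arrays were tried as alternatives.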

Additional observations from a re-analysis of the deposited data

How the results depend on the processing

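No member was called by limma at an adjusted p under 0.05 under any alternative run, the lowest being 0.297 for Pfkm and for Aldoc without WT replicate 3. At an unadjusted p under 0.05 there were 2 members, 8 other carbohydrate and HIF genes and 1452 of all genes. The number of genes called among all genes, 1 as reported, was 3 with a mean-variance trend, 2 with array weights, 2 with the dimmer genes left out before the fit, 5 with the mean of probe sets, 4 at an adjusted p under 0.1, 0 with the replicate block, and 0 (without WT replicate 3) to 5 (without WT replicate 2) with 1 array left out. The replicate block changed no call of a member. Members higher without overlap, 1 as reported, were 0 with the mean of probe sets, where 7.8% of all genes were. They were 2 without _x_at and _s_at probe sets where possible, where 8.17% of all genes were. Slc2a3, 1 of these 2, was then read from a dim probe set at 3.46 to 4.06. With 1 array left out, members higher without overlap were 1 to 3, where 12.4% to 18.8% of all genes were. Members lower without overlap, 5 as reported, were 3 with arrays centred, 4 with the mean of probe sets and 2 with the probe set of highest SD. The shares of all genes were 5.84%, 6.9% and 7.3% in these cases. With 1 array left out, members lower without overlap were 5 to 8, where 10.1% to 15.3% of all genes were. The 8 were seen without WT replicate 3 or N1-IC replicate 3, where 15.3% and 13.1% of all genes were. Isoform pairs without overlap, 0 as reported, were 0 with the other probe set rules tried and 0 to 2 with 1 array left out. Of 462 member values under alternatives, 40 changed sign, in 15 members, and 14 members kept their sign throughout. Signs turned with quantile normalization in Gapdh (-0.0107), Pgam1 (-0.00882) and Pfkfb3 (0.0123), and with centring in Pkm (0.00625) and Pfkfb3 (0.00329). They turned with the mean of probe sets in Hk3 (0.0495), Aldoa (0.014), Tpi1 (0.00387), Gapdh (-0.0105), Pfkfb3 (0.143) and Hif1a (-0.251). With the probe set of highest SD they turned in Hk3 (0.131), Aldoa (0.396), Gapdh (-0.0275), Pfkfb3 (0.296), Hif1a (-0.645), Pgd (-0.0541) and Tkt (0.0685). Pgd also turned (-0.0541) without _x_at and _s_at probe sets where possible. With 1 array left out, values ran from -0.499 to 1.06 for Slc2a3, -0.114 to 0.074 for Hk3, -0.264 to 0.106 for Pfkp, -0.0548 to 0.035 for Tpi1, -0.000389 to 0.00581 for Gapdh, -0.013 to 0.0581 for Pgk1, -0.0204 to 0.0544 for Pgam1, -1.07 to 0.458 for Eno2, -0.0186 to 0.00581 for Pkm, -0.0858 to 0.0542 for Pfkfb3, -0.0584 to 0.286 for Pfkfb4, -0.00148 to 0.271 for Hif1a and -0.00568 to 0.129 for Pgd. Among members that kept their sign they ran from -0.586 to -0.0204 for Aldoc, -0.464 to -0.106 for Ldhb, -0.17 to -0.06 for Slc2a1, -0.122 to -0.0364 for Ldha, 0.00162 to 0.177 for Slc16a1, 0.000478 to 0.409 for Slc16a3, -0.158 to -0.0357 for Pgls, 0.0441 to 0.266 for Rpia and -0.159 to -0.0575 for Taldo1. The cause of these changes was not tested, and signal near background limits what can be read from dim probe sets.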
